A study of Mus musculus with 18 samples.

Results

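The genes described here are 9 receptors and ligands through which motor neurons respond to trophic factors released by their targets: the GDNF family receptor tyrosine kinase Ret, its GPI-anchored co-receptors Gfra1, Gfra2, Gfra3 and Gfra4, the neurotrophin receptors Ntrk2 (TrkB), Ntrk3 (TrkC) and Ngfr (p75NTR), and the TrkB ligand Bdnf. They were chosen by name, as the rows of the count tables whose Entrez identifiers match these symbols. All 9 were found among 27179 rows, and all 9 were among the 20944 genes tested. RNA-seq was analyzed from 18 libraries of mouse embryonic stem cells differentiating as embryoid bodies into spinal motor neurons and interneurons, with 3 libraries in each of 6 groups. All 6 groups received 1 µM retinoic acid and 0.5 µM of the hedgehog agonist SAG. Day 2 progenitors came from a line labeled iCre and received no doxycycline (Dox). Control neurons came from the iFlag.Hoxc6 line at day 4 without Dox. The iHoxc6, iHoxc8, iHoxc9 and iHoxc10 neurons each carried 1 Dox-inducible transgene for a Flag-tagged Hox protein, were exposed to 3 µg/ml Dox for 48 h from day 2, and were harvested at day 4. The transgene is not restricted to motor neurons, so every cell type in the embryoid bodies can express it. The 3 replicates of a group were separate differentiations of 1 engineered line, and the control for iHoxc8, iHoxc9 and iHoxc10 neurons therefore came from a different line. None of the 6 groups received Dox without a Hox transgene. Dox exposure and Hox induction therefore cannot be told apart in any comparison of iHox with control neurons.

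GDNF, neurturin, artemin and persephin bind GFRα1, GFRα2, GFRα3 and GFRα4 respectively as preferred partners, and the ligand-bound co-receptor activates the RET kinase. BDNF and NT-4 act mainly on TrkB and NT-3 mainly on TrkC, while p75NTR binds all neurotrophins with lower affinity and can also signal on its own. In the embryo these receptors differ between motor neuron pools and columns, and GDNF and BDNF are best known in this tissue for supporting motor neuron survival, and GDNF also for guiding motor axons in the limb. The comparison of progenitors with control neurons asks how the receptors change with differentiation, and the comparisons of the iHox lines ask whether Hox proteins of different paralog groups leave a different receptor set on neurons generated in the same way.

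In RefSeq coordinates of GRCm38.p6, the assembly that mm10 names, Ret spans 118151748-118197744 of chromosome 6, Gfra1 58235581-58455946 of chromosome 19, Gfra2 70890107-70979840 of chromosome 14, and Gfra4 131039632-131043088 of chromosome 2. Ntrk2 spans 58806472-59133970 of chromosome 13, Ntrk3 78179986-78581034 of chromosome 7, Ngfr 95568818-95587698 of chromosome 11, and Bdnf 109674700-109727043 of chromosome 2. Gfra1, Gfra4, Ngfr, Ntrk2 and Bdnf, 5 of the 9, had a promoter entry in the RefSeq table used, with 7 start sites for Bdnf and 2 for Gfra4. Stretches upstream of a start site and outside annotated exons are shown for Gfra1, the co-receptor that rose most in iHoxc10 neurons, for Ntrk2 and Bdnf, which rose in iHoxc9 neurons, and for Ngfr, the most abundant of the receptors per length. They are Gfra1 at chr19:58455399-58455460 on the minus strand, Ntrk2 at chr13:58806319-58806471 on the plus strand, the first Bdnf start at chr2:109674450-109674699 on the plus strand, and Ngfr at chr11:95587736-95587948 on the minus strand. They are written 5′ to 3′ on the strand of the gene, and capitals mark the cores TAAT and TTAT read on either strand, the short sequences that central and posterior Hox proteins respectively prefer in vitro.
Gfra1: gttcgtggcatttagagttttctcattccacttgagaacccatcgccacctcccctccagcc
Ntrk2: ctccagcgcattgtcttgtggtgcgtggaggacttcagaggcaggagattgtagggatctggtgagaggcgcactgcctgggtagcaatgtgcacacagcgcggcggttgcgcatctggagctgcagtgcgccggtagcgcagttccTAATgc
Bdnf: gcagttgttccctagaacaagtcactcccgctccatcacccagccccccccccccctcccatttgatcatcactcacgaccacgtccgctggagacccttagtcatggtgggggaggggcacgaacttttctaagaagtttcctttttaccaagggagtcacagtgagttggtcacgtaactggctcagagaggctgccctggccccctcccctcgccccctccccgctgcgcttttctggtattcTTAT
Ngfr: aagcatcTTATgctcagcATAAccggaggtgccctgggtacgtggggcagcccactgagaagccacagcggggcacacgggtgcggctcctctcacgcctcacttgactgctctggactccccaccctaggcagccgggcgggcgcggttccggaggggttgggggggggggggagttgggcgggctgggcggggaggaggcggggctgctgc

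The Gfra1 stretch held neither core, the Ntrk2 stretch held 1 TAAT, the Bdnf stretch held 1 TTAT, and the Ngfr stretch held 2 TTAT. Matches were also counted, on both strands, in the whole window of 250 bases before each start, part of which can lie in another exon. In that window Gfra1 held 2 TTAT, and the longer Hox-PBX sequence TGATTNAT occurred before 1 of the 7 Bdnf starts and 1 of the 2 Gfra4 starts. Of 32851 promoter windows of the same length, 54.9% held TAAT, 60.9% held TTAT and 2.82% held TGATTNAT. The 2 short cores are thus common in promoters at large, and these matches describe the sequence only. The motifs can overlap each other.

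Levels are given as CPM, read counts scaled to library size with TMM factors. A difference is given as the log2 fold change with its standard error (SE), from a quasi-likelihood test (edgeR) of 1 model that held the 18 libraries. A gene was called changed at an adjusted p under 0.01 (Benjamini-Hochberg over all 20944 genes), and differentially expressed when the absolute log2 fold change was also above 2. Total counts were 24498630 to 33168533 per library, so that 3 counts correspond to 0.0883 to 0.122 CPM, a limit of counting error only. The libraries came from 4 sequencing runs. Control and iHoxc6 neurons shared a run, as did iHoxc9 and iHoxc10 neurons. In every other comparison the run cannot be told apart from the group. Each induced Hoxc gene reached at least 213 CPM in all libraries of its own line, and elsewhere it stayed at or below 5.17 CPM, except for Hoxc6 in iHoxc10 neurons at 43.1 to 49.4 CPM. The label of motor neurons was checked against 8 markers (Mnx1, Isl1, Isl2, Lhx3, Chat, Slc18a3, Slc5a7 and Prph), none of which was at 0 in any group. Their summed level was 20.7 to 47.5 CPM in progenitors, 682 to 713 CPM in control neurons, and in the iHoxc6, iHoxc8, iHoxc9 and iHoxc10 lines it was 461 to 538, 481 to 535, 314 to 336 and 518 to 584 CPM respectively. In these bulk libraries, fewer cells of a type and less RNA per cell cannot be told apart.

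Ret and Ngfr were the receptors that rose most between day 2 progenitors and control neurons. Ngfr was at 12.3, 20.6 and 13.1 CPM in the 3 progenitor libraries and at 345, 375 and 409 CPM in control neurons, a log2 fold change of 4.62 (SE 0.18, adjusted p = 7.54e-15). Ret rose from 31.2, 40.8 and 31.2 CPM to 184, 170 and 162 CPM (2.32, SE 0.13, adjusted p = 9.63e-13). For both receptors the ranges of the groups were far apart. Of the 9 genes, 6 rose and none fell, where 21.2% of all genes tested rose and 21.2% fell. Ret and Ngfr were the 2 that were differentially expressed, as were 6.74% of all genes in the upward direction. The median log2 fold change of the 9 genes was 1.16, and that of all genes was 0.

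Gfra1, the GDNF co-receptor, rose from 20.6 ± 2.78 to 36.2 ± 6.24 CPM (mean ± SD, n = 3 in each group, as for every such pair here), a log2 fold change of 0.81 (SE 0.15, adjusted p = 7.21e-05). Gfra2 was present at 0.498 ± 0.127 CPM in progenitors and 1.15 ± 0.358 CPM in control neurons (1.19, SE 0.28, adjusted p = 0.000941). Without the first progenitor library the adjusted p of Gfra2 was 0.0101. Ntrk2 rose 2.23-fold, from 2.26 ± 0.966 to 5.06 ± 0.936 CPM (adjusted p = 0.000184). Gfra4, the persephin co-receptor, rose from 0.163 ± 0.0663 to 0.627 ± 0.128 CPM (adjusted p = 0.000289), on few reads. Gfra3, Ntrk3 and Bdnf did not pass the test. Gfra3 was at 2.92 ± 0.606 CPM in progenitors and 2.58 ± 0.367 CPM in control neurons, with a 95% interval of the log2 fold change from -0.62 to 0.26. The intervals were 0.11 to 1.20 for Ntrk3 and -1.31 to 0.14 for Bdnf. When progenitors and control neurons were fitted alone, 4 of the 9 genes passed. The motor neuron markers moved along with these receptors, from 20.7 to 47.5 CPM in sum to 682 to 713 CPM, and their part was not tested.

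Compared per kilobase of exon, which allows levels of different genes to be set side by side, control neurons held 109 CPM per kb of Ngfr, 25.4 of Ret and 6.61 of Gfra1. Gfra3 followed at 1.29 CPM per kb. Gfra2, Gfra4 and Ntrk2 lay between 0.262 and 0.324, and Bdnf and Ntrk3 were lowest at 0.0695 and 0.0568. Exons here are the union over transcripts, which is long for Ntrk2 (19292 bases) and Ntrk3 (30170 bases) and so lowers their values per kb.

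**Figure D1:**
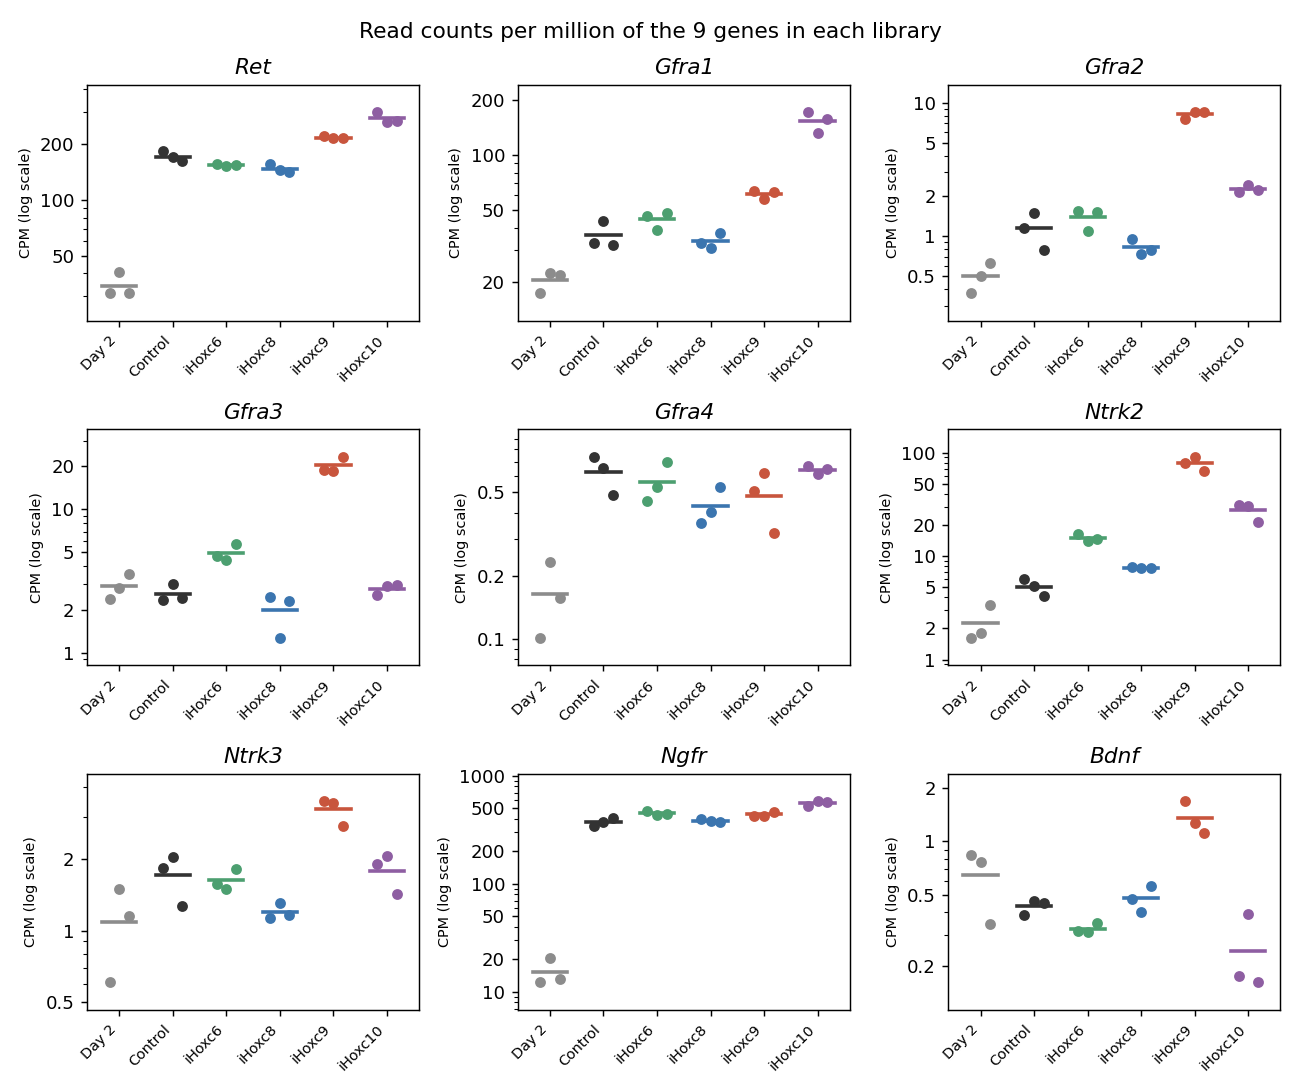
CPM of the 9 genes (vertical axes, log scale) in each of the 3 libraries of the 6 groups (horizontal axes), with points for libraries and a line for the mean. Gfra2, Gfra3 and Ntrk2 stand highest in all 3 iHoxc9 libraries, Gfra1 and Ret in all 3 iHoxc10 libraries, and Ngfr separates progenitors (12.3 to 20.6 CPM) from every day 4 group (345 to 584 CPM).

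In iHoxc6 neurons 1 receptor differed from control neurons, which had received no Dox. Ntrk2 was at 16.4, 13.9 and 14.7 CPM in iHoxc6 neurons, against 5.94, 5.16 and 4.08 CPM in control neurons of the same line and run. The groups did not overlap, and the difference was 2.95-fold (log2 fold change 1.56, SE 0.21, adjusted p = 0.000215). With the replicate block in a fit of these groups alone, whose numbers do not pair, the call was lost (adjusted p = 0.0105). In the fit of all libraries, 1 of the 9 genes was called, where 0.363% of all genes rose and 0.224% fell. Gfra3, the artemin co-receptor, was at 4.71, 4.42 and 5.77 CPM in iHoxc6 neurons and 2.35, 3.00 and 2.40 CPM in control neurons, also without overlap, but it did not pass the threshold (0.94, SE 0.22, adjusted p = 0.0245). It did so without the second control, the third progenitor or the second iHoxc8 library, each of which brought the count to 2, with adjusted p-values of 0.00395 to 0.00799. DESeq2 also called Gfra3 (adjusted p = 0.00308). The 95% intervals of the log2 fold change were -0.39 to 0.09 for Ret and -0.04 to 0.56 for Ngfr. The groups did not overlap for 5 of the 9 genes, against 24.4% of all genes. The 12 sensory neuron and neural crest markers summed to 207 to 222 CPM in iHoxc6 and 137 to 165 CPM in control neurons and the 8 motor neuron markers to 461 to 538 CPM against 682 to 713 CPM, and their part in the rise of Ntrk2 was not tested.

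None of the 9 genes passed in iHoxc8 neurons by edgeR's test, where 1.03% of all genes rose and 1.09% fell, and DESeq2 also called none. At an unadjusted p under 0.05, 1 of the 9 was counted, Ntrk2. Its levels of 7.81, 7.68 and 7.66 CPM lay above the highest control library (log2 fold change 0.61, SE 0.21, adjusted p = 0.0817). Gfra3 stood at 2.45, 1.27 and 2.28 CPM, a range that overlapped that of control neurons. Against iHoxc6 neurons, iHoxc8 neurons had less Gfra3 (-1.30, SE 0.22, adjusted p = 0.00117) and less Ntrk2 (-0.96, SE 0.20, adjusted p = 0.0054). The Ntrk2 call was lost without any 1 of the 3 iHoxc6 libraries or without iHoxc8 replicate 1 or 3 (adjusted p = 0.0165 to 0.0330). Same-numbered libraries of these 2 groups deviated together, and when these groups alone were fitted with a replicate block, Gfra1 was lower in iHoxc8 neurons as well (-0.40, adjusted p = 0.00043, against 0.0939 in the fit of all libraries). The iHoxc8 libraries came from another line and run than the iHoxc6 libraries.

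The iHoxc9 neurons showed the largest rises of TrkB and of the GFRα2 and GFRα3 co-receptors. Ntrk2 reached 79.9, 91.5 and 66.7 CPM, a 15.6-fold difference from control neurons (log2 fold change 3.97, SE 0.23, adjusted p = 2.71e-11). Gfra3 reached 18.8, 18.6 and 23.3 CPM (7.83-fold; 2.97, SE 0.22, adjusted p = 1.88e-09). Gfra2 reached 7.55, 8.51 and 8.52 CPM, against 1.16, 1.5 and 0.786 CPM in control neurons (7.12-fold; 2.83, SE 0.24, adjusted p = 9.56e-09). For each of the 3 genes, the lowest iHoxc9 library was above the highest library of every other group. Gfra1 rose 1.69-fold, to 63.8, 57.5 and 62.7 CPM (0.76, SE 0.15, adjusted p = 0.000639). Ret did not pass the threshold, at 222, 216 and 216 CPM against 184, 170 and 162 CPM (0.34, SE 0.12, adjusted p = 0.0453), although the libraries did not overlap.

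Bdnf itself was 3.12-fold higher in iHoxc9 than in control neurons (log2 fold change 1.64, SE 0.35, adjusted p = 0.00154), at a level near the limit of what these libraries resolve. The 3 iHoxc9 libraries held 43, 43 and 28 counts (1.68, 1.27 and 1.11 CPM), and the 3 control libraries 12 each (0.385, 0.462 and 0.449 CPM). The adjusted p was 0.01003 without the first control library and 0.0131 without the first iHoxc9 library, and then 4 of the 9 genes were called. GENCODE places the antisense gene Gm45346 over 14.4% of the exon bases of Bdnf, and Gm16277 over 7.6% of those of Gfra1. The strand setting of the counting is not stated in the sources used here, so reads of these pairs may not be separated.

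Ntrk3, the TrkC receptor, was at 3.48, 3.41 and 2.75 CPM in iHoxc9 and 1.83, 2.04 and 1.27 CPM in control neurons, again without overlap (0.91, SE 0.26, adjusted p = 0.0140). It passed without the second control, the first progenitor or the third progenitor library (adjusted p = 0.00953, 0.00661 and 0.00782) and with DESeq2 (adjusted p = 0.00578). For Ngfr the 95% interval of the log2 fold change was -0.07 to 0.52, and for Gfra4 it was -1.03 to 0.31. In all, 5 of the 9 genes rose and none fell in iHoxc9 neurons, and 3 (Ntrk2, Gfra2 and Gfra3) were differentially expressed. Of all genes, 6.95% rose, 7.13% fell and 1.53% were differentially expressed in the upward direction. The libraries did not overlap for 8 of the 9 genes, against 38.6% of all genes, and the median log2 fold change was 0.91 for the 9 genes and 0 for all genes to 2 decimals.

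Markers of other cell types moved with these rises. The summed level of 11 spinal interneuron markers was 32.8 to 42.9 CPM in iHoxc9 neurons and 7.12 to 8.12 CPM in control neurons, with Sim1, a V3 marker, at 17.1 against 0.461 CPM. Of these 11 markers 3 rose and 2 fell, and Evx2 was at 0 in all iHoxc9 libraries. The sum of 12 sensory neuron and neural crest markers was lower, at 27.1 to 32.2 CPM against 137 to 165 CPM, with Th, which encodes tyrosine hydroxylase, at 10.1 against 83.3 CPM. The sum hides changes in both directions, as 7 of the 12 fell and 2 rose. Those that rose were Pou4f1, from 2.01 to 5.04 CPM (1.33), and Pou4f3, from 0 to 2.75 CPM. None of these 12 was at 0 in all iHoxc9 libraries. The motor neuron sum was 314 to 336 CPM against 682 to 713 CPM. The 10 glial markers summed to 124 to 135 CPM against 167 to 223 CPM, the 8 progenitor markers to 542 to 595 CPM against 320 to 659 CPM, and the 8 pluripotent, mesodermal and endothelial markers to 2.63 to 3.50 CPM against 1.31 to 2.00 CPM. Single progenitor markers went both ways. Sox1 and Sox2 rose (0.92 and 1.10), and Olig2, Nkx6-2 and Hes5 fell (-1.25, -1.94 and -1.19). The part of all these markers in the receptor changes was not tested.

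In iHoxc10 neurons, GFRα1 and its partner RET rose along with TrkB. Gfra1 was at 172, 132 and 158 CPM, against 33.0, 43.4 and 32.3 CPM in control neurons, a 4.26-fold difference (log2 fold change 2.09, SE 0.15, adjusted p = 2.64e-09). Ret was at 299, 266 and 268 CPM (1.62-fold; 0.69, SE 0.12, adjusted p = 0.000288). Ntrk2 was at 31.5, 30.5 and 21.4 CPM (5.48-fold; 2.45, SE 0.22, adjusted p = 4.97e-08). Each of the 3 genes was above all control libraries in all 3 iHoxc10 libraries. The share of all genes without overlap is not given for this comparison, and between iHoxc9 and control neurons it was 38.6%. Gfra2 was also higher, at 2.14, 2.40 and 2.23 CPM (1.96-fold; 0.97, SE 0.24, adjusted p = 0.00494), as was Ngfr, at 530, 584 and 574 CPM (1.5-fold; 0.58, SE 0.15, adjusted p = 0.00721).

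Gfra3 did not pass the test in iHoxc10 neurons, at 2.52, 2.90 and 2.96 CPM, with a 95% interval of the log2 fold change from -0.33 to 0.56. Ntrk3 (1.89, 2.04 and 1.42 CPM) and Gfra4 (0.609 to 0.665 CPM) did not pass either. Bdnf was at 5, 11 and 4 counts, or 0.175, 0.394 and 0.162 CPM (-0.80, SE 0.43, adjusted p = 0.196). Thus 5 of the 9 genes rose and none fell, where 6.67% of all genes rose and 7.75% fell. Gfra1 and Ntrk2 were the 2 differentially expressed, as were 0.773% of all genes in the upward direction. The calls for Gfra2 and Ngfr were close to the threshold. Without control replicate 1 or 3, or without iHoxc10 replicate 1, 2 or 3, both calls were lost and 3 genes remained, with adjusted p-values of 0.0109 to 0.0391 for Gfra2. The call for Ngfr was lost without any 1 of 11 libraries, namely all of the control, iHoxc9 and iHoxc10 libraries and iHoxc8 replicates 1 and 3 (adjusted p = 0.0101 to 0.0390). The fit of these 2 groups alone also left 3 genes. The interneuron markers summed to 9.28 to 14.7 CPM, the motor neuron markers to 518 to 584 CPM and the sensory neuron and neural crest markers to 109 to 121 CPM in these neurons, and their part in the receptor changes was not tested.

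**Figure D2:**
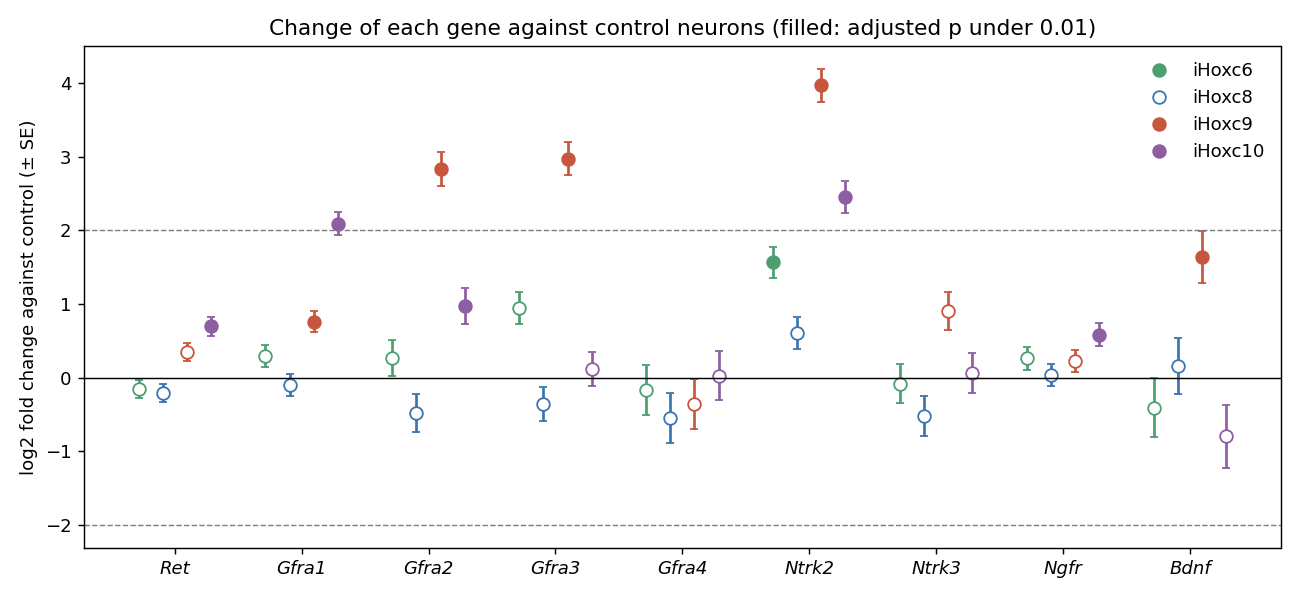
Log2 fold change of each gene against control neurons in the 4 iHox lines (vertical axis; bars, SE; n = 3 libraries per group). Filled points had an adjusted p under 0.01, and dashed lines mark an absolute log2 fold change of 2. Ntrk2 lies past 2 in iHoxc9 (3.97) and iHoxc10 (2.45) neurons, Gfra2 (2.83) and Gfra3 (2.97) in iHoxc9 and Gfra1 (2.09) in iHoxc10.

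Hoxc9 and Hoxc10 both belong to the posterior paralog groups, and their libraries shared a sequencing run, so they were compared directly. Gfra3 was 7.23-fold higher in iHoxc9 than in iHoxc10 neurons (log2 fold change 2.85, SE 0.22, adjusted p = 7e-09), and Bdnf was 5.43-fold higher (2.44, SE 0.38, adjusted p = 0.000133). Gfra2 was 3.63-fold higher (1.86, SE 0.22, adjusted p = 4.01e-06) and Ntrk2 2.85-fold higher (1.51, SE 0.20, adjusted p = 1.55e-05). Gfra1 went the other way and was 2.51-fold lower in iHoxc9 neurons (-1.33, SE 0.15, adjusted p = 1.59e-06). Hence 4 of the 9 genes were higher and 1 was lower in iHoxc9 neurons, where 2.6% of all genes were higher and 2.4% lower. Gfra3 and Bdnf were the 2 differentially expressed, as were 0.711% of all genes in that direction. These 5 calls were made in every fit with 1 library left out. For each of the 5, the libraries of the 2 groups did not overlap.

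Ret, Ngfr and Ntrk3 did not overlap between iHoxc9 and iHoxc10 neurons but missed the threshold in edgeR's fit of all libraries. Ret had an adjusted p of 0.0857 (-0.35, SE 0.12), Ngfr of 0.189 (-0.36, SE 0.15) and Ntrk3 of 0.0453 (0.85, SE 0.26). DESeq2's Wald test on all libraries called Ret lower in iHoxc9 neurons (-0.40, adjusted p = 0.0015), but not Ngfr or Ntrk3. Libraries with the same replicate number deviated together in these 2 groups. When only these groups were fitted, 8 of the 9 genes passed, and again 8 when the replicate number entered as a block, with Gfra4 the exception. The share of all genes called was not computed for these fits, so the count of 8 cannot be set against it. With the block, the adjusted p was 3.31e-13 for Ret and 3.91e-14 for Ngfr, both lower in iHoxc9 neurons, and 5.4e-06 for Ntrk3, higher in iHoxc9 neurons. The log2 fold changes there (-0.38 for Ret and -0.39 for Ngfr) were near those of the fit of all libraries. That fit held only 3 libraries per group, and its pairing was read from the same libraries, as no label gives it. Its very small p-values are therefore no measure of the spread between differentiations. The libraries did not overlap for 8 of the 9 genes, against 31% of all genes.

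The shares of Gfra1 and of Gfra3 among the 4 co-receptors had ranges that did not overlap between iHoxc9 and iHoxc10 neurons. Per kilobase of exon, Gfra1 made up 77.6% ± 0.887 (SD, n = 3) of the 4 co-receptor transcripts in control neurons. Its share was 72.2% ± 1.52 with Hoxc6, 81.2% ± 3.19 with Hoxc8, 47.0% ± 2.55 with Hoxc9 and 92.2% ± 1.32 with Hoxc10. Gfra3 made up 15.2% ± 0.603 in control neurons, 22.1% ± 1.33 with Hoxc6, 13.1% ± 3.32 with Hoxc8, 42.3% ± 2.75 with Hoxc9 and 4.66% ± 0.864 with Hoxc10. Thus GFRα1 and GFRα3 transcripts together made up most of the sum in iHoxc9 neurons, and GFRα1 alone did so in iHoxc10 neurons. The ranges of Gfra1 were 44.6 to 49.7% in iHoxc9 and 90.9 to 93.5% in iHoxc10 neurons. Gfra2 made up 9.72% ± 0.847 in iHoxc9 neurons and 2.12% to 3.76% on average in the other 5 groups, while Gfra4 stayed at or below 3.43% on average in every group.

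The sum of the 4 co-receptors was 5.43 ± 0.816 CPM per kb in progenitors and 8.52 ± 1.43 in control neurons. With Hoxc6 it was 11.2 ± 1.28, with Hoxc8 7.58 ± 0.848, with Hoxc9 23.9 ± 1.63 and with Hoxc10 30.5 ± 3.61. Set against Ret per kb, the sum was 1.08 ± 0.199 in progenitors, where Ret was low, and 0.336 ± 0.0603 in control neurons. It was 0.741 in both iHoxc9 (SD 0.0556) and iHoxc10 (SD 0.0603) neurons, although the co-receptors behind it differed. These shares use exon lengths of the annotation and no test was run on them, and 3 libraries against 3 cannot give a two-sided exact permutation p below 10%.

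**Figure D3:**
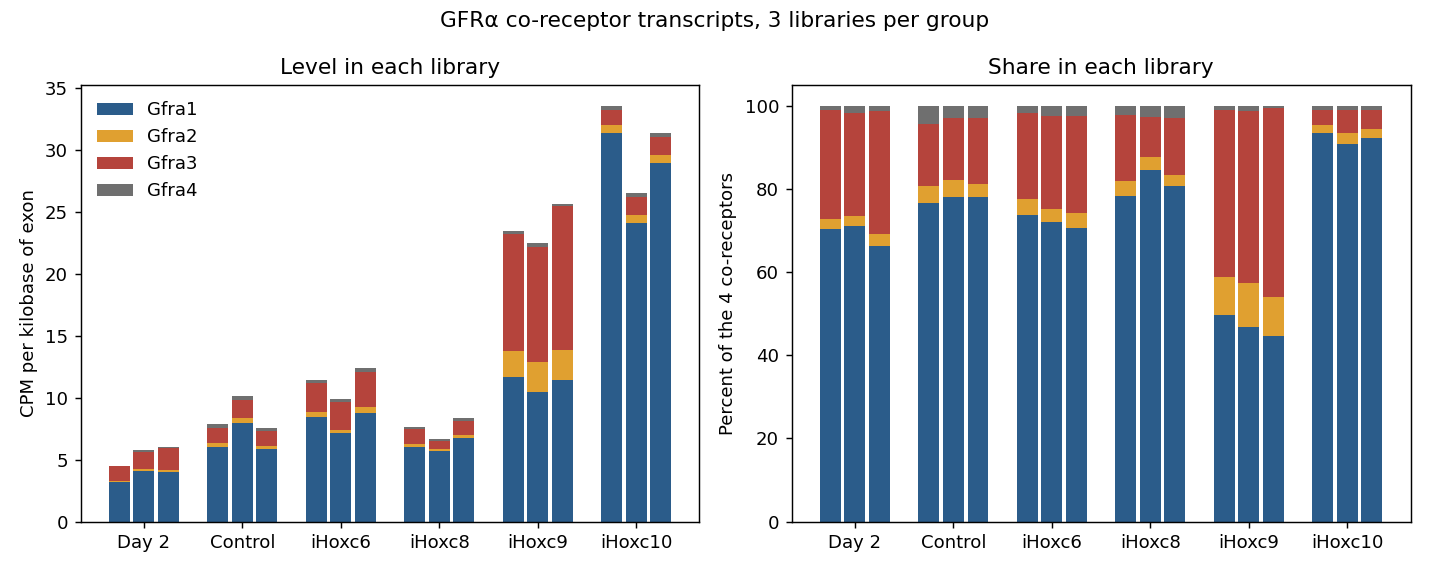
Transcripts of the 4 GFRα co-receptors in each library as stacked bars, in CPM per kilobase of exon (left) and as percent of their sum (right), with 3 bars per group. Gfra3 takes 40.2 to 45.4% of the sum in iHoxc9 libraries and 3.76 to 5.48% in iHoxc10 libraries, where Gfra1 takes 90.9 to 93.5%.

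Ordered by mean CPM over the 6 groups, the genes fell into patterns that differed in how many steps were resolved. Ntrk2 descended from iHoxc9 through iHoxc10, iHoxc6, iHoxc8 and control neurons to progenitors, and 4 of the 5 neighboring pairs differed at an adjusted p under 0.01, the exception being iHoxc8 and control neurons. The step from iHoxc10 to iHoxc6 neurons was lost without iHoxc6 replicate 2 or 3 or iHoxc10 replicate 1 or 2 (adjusted p = 0.0162 to 0.0251), and the step from iHoxc6 to iHoxc8 neurons without the libraries named above. Gfra1 was highest in iHoxc10 and then in iHoxc9 neurons, a step that passed. The steps down to iHoxc6 (adjusted p = 0.0266), control and iHoxc8 neurons did not pass. With the replicate block in a fit of iHoxc9 and iHoxc6 neurons alone, the adjusted p for Gfra1 was 5.23e-07. The same-numbered libraries of these 2 groups correlated only weakly (r = 0.142, 0.215 and 0.117) and came from different runs, so their pairing is uncertain. Last came progenitors, which were lower than iHoxc8 neurons (adjusted p = 0.0003). Gfra3 was highest in iHoxc9 and then in iHoxc6 neurons (adjusted p = 3.07e-07), and iHoxc6 neurons exceeded progenitors, the next group (adjusted p = 0.00429). That last call was lost without progenitor replicate 1 or 2 or iHoxc6 replicate 3, and when the 2 groups were fitted alone (adjusted p = 0.0162 to 0.0288). The steps among progenitors, iHoxc10, control and iHoxc8 neurons did not pass. Gfra2 was highest in iHoxc9 neurons, above iHoxc10 neurons, and none of its later steps passed. For Ret and Gfra4, the only step that passed was the one between iHoxc8 neurons and progenitors, and for Ngfr it was the one between control neurons and progenitors. The Gfra4 step (adjusted p = 0.00706) was lost with DESeq2, without the filter, in the 2 groups alone, and without progenitor replicate 1 or 3, iHoxc6 replicate 2, iHoxc10 replicate 3 or any iHoxc8 library (adjusted p = 0.0101 to 0.0466). Bdnf was highest in iHoxc9 neurons, above progenitors (adjusted p = 0.00894). This call was lost with DESeq2 or its size factors, without the filter, in the 2 groups alone, and without any 1 library other than progenitor replicate 1, control replicate 2 and iHoxc10 replicates 1 and 2 (adjusted p = 0.0106 to 0.0552). For Ntrk3, no neighboring pair differed at this threshold. A step that did not pass does not show that its groups were alike.

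The other ligands and receptors of the 2 systems were sparse where they were ligands. Per group, the mean was at most 0.400 CPM for Gdnf, 0.391 CPM for Nrtn (neurturin), 0.374 CPM for Artn (artemin) and 0.0398 CPM for Pspn (persephin), so the GDNF family ligands were near the limit of detection in all 6 groups. Gfral, the receptor of GDF15, had no count in any library and was not tested, and Gdf15 had at most 2 counts. Among these ligands Ntf3, which encodes NT-3, stood out at 10.7 ± 3.50 CPM in control neurons, against 0.339 ± 0.0618 CPM in progenitors (log2 fold change 4.97, SE 0.31, adjusted p = 7.61e-12). It fell by 0.96 on the log2 scale in iHoxc9 (adjusted p = 0.00424) and by 1.24 in iHoxc10 neurons (adjusted p = 0.000559). Ntf5, which encodes NT-4, was at 0.443 ± 0.159 CPM in progenitors and had at most 1 count in each control library. It was called lower in control neurons (adjusted p = 0.000120).

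The sortilin family receptors Sorcs2, Sorcs3 and Sorl1 and the TRK and p75NTR scaffold Kidins220 rose in both iHoxc9 and iHoxc10 neurons. Sorcs3 rose from 2.57 ± 1.37 CPM in control neurons to 12.0 ± 1.74 CPM with Hoxc9 (2.20, adjusted p = 2.92e-06) and 42.3 ± 12.0 CPM with Hoxc10 (4.02, adjusted p = 1.61e-09). Sorl1 rose from 12.0 ± 3.30 to 40.4 ± 1.76 CPM with Hoxc9 and 53.9 ± 14.5 CPM with Hoxc10 (1.75 and 2.16). Of the 14 other neurotrophin pathway genes, 8 were higher and 1 was lower in control neurons than in progenitors, where 21.2% of all genes rose and 21.2% fell. None passed in iHoxc6 or iHoxc8 neurons, while 4 rose and 2 fell, Ntf3 among them, in iHoxc9 and 4 rose and 1 fell (Ntf3) in iHoxc10 neurons. The shares of all genes were 6.95% up and 7.13% down in iHoxc9 and 6.67% up and 7.75% down in iHoxc10 neurons. In iHoxc9 neurons 2, Sorcs3 among them, were lower than in iHoxc10 neurons, and none was higher, where 2.4% of all genes were lower and 2.6% higher. The median log2 fold change of the list was 1.11 for control neurons against progenitors, 0.12 in iHoxc9 and 0.15 in iHoxc10 neurons.

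Of the 9 GDNF pathway genes tested beyond the receptors themselves, Ncam1, an alternative GDNF receptor, and Sdc3, the heparan sulfate proteoglycan syndecan-3, rose from progenitors to control neurons. Ncam1 went from 28.8 ± 9.03 to 367 ± 82.4 CPM (3.67, SE 0.24, adjusted p = 1.49e-11) and Sdc3 from 27.8 ± 2.11 to 135 ± 16.4 CPM (2.28, SE 0.13, adjusted p = 1.82e-12). Gas1, a GFRα-related protein, and Lrig1, a RET inhibitor, fell in the same comparison, by 1.23 and 0.95 on the log2 scale. Among all genes 21.2% rose and 21.2% fell there. Gas1 fell further in all 4 iHox lines, from 14.0 ± 1.74 CPM in control neurons to 7.45 ± 0.535 CPM with Hoxc6, 5.63 ± 1.13 with Hoxc8, 5.60 ± 0.110 with Hoxc9 and 7.88 ± 0.910 with Hoxc10 (adjusted p = 0.00229 at most). It was the only gene of the list called in iHoxc6 and in iHoxc9 neurons, where 0.224% and 7.13% of all genes fell respectively. Sdc3 also rose in iHoxc8 (0.58, adjusted p = 0.00792) and iHoxc10 neurons (0.83, adjusted p = 5.55e-05), and was lower in iHoxc9 than in iHoxc10 neurons (-0.57, adjusted p = 0.00386). The median of the list was -0.75 for control neurons against progenitors, or -0.56 with genes at 3 counts or fewer set to that limit, and lay between -0.15 and 0.04 in the iHox lines.

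**Figure D4:**
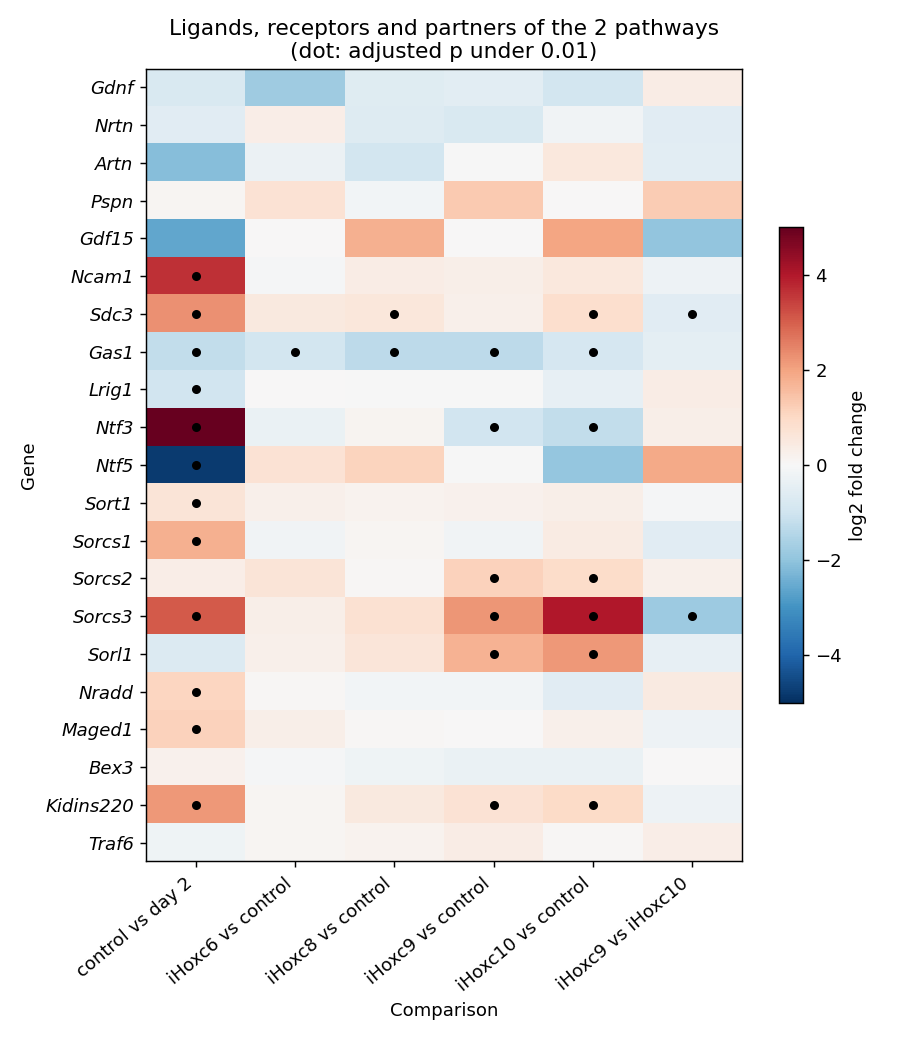
Log2 fold change (color) of other ligands, receptors and partners of the GDNF and neurotrophin systems (rows) in the 6 comparisons (columns), with a dot where the adjusted p was under 0.01. Sorcs3 and Sorl1 are higher in iHoxc9 neurons than in control neurons, and Gas1 is lower in all 4 iHox lines.

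Downstream of the receptors, 10 of 20 adaptors and kinases that bind activated RET or TRK rose and 1 (Shc1) fell from progenitors to control neurons, with a median log2 fold change of 1.01. The shares of all genes in this comparison were 21.2% up and 21.2% down. Shc3, a neuronal SHC adaptor, rose from 0.0545 to 1.83 CPM (4.97), Dok5 from 1.95 to 26.7 CPM (3.77), Dok4 from 5.21 to 34.7 CPM (2.73) and Gab2 from 12.5 to 75.1 CPM (2.58). In iHoxc6 and iHoxc8 neurons none passed. In iHoxc9 neurons Pik3r1, the PI3-kinase regulatory subunit, rose from 31.5 to 94.7 CPM (1.59, adjusted p = 1.83e-06), Frs2, Gab1 and Plcg1 rose by 0.57 to 0.74 on the log2 scale, and Shc1 fell. In iHoxc10 neurons Pik3r1 (65.6 CPM; 1.06), Gab2 (0.86) and Dok5 (0.53) rose and Shc1 fell, and Gab2 and Dok5 were lower in iHoxc9 than in iHoxc10 neurons. Against control neurons, 6.95% of all genes rose and 7.13% fell with Hoxc9, and 6.67% rose and 7.75% fell with Hoxc10. Between these 2 lines 2.4% of all genes were lower in iHoxc9 neurons.

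Among 20 genes known to respond to ERK signaling, as these receptors elicit, 10 rose and 1 (Spred1) fell from progenitors to control neurons, where 21.2% of all genes rose and 21.2% fell. Etv4 rose from 0.512 to 9.87 CPM (4.26), Dusp4 from 19.9 to 292 CPM (3.88), Spred3 from 4.28 to 54.2 CPM (3.66) and Vgf from 0.358 to 3.71 CPM (3.35). Etv4 encodes an ETS factor known to depend on GDNF in motor pools of the limb levels. In iHoxc9 neurons Etv4 fell to 3.91 CPM (-1.34, SE 0.20, adjusted p = 3.61e-05) and the ERK phosphatase gene Dusp6 from 41.5 to 13.0 CPM (-1.67, SE 0.16, adjusted p = 1.1e-07), while Etv1, Spry2 and Spred1 rose by 1.38, 0.68 and 0.64. In iHoxc9 neurons 3 of the 20 genes thus rose, 2 fell and 15 did not pass, and the list's median was -0.23. Among all genes 6.95% rose and 7.13% fell in that comparison, so with 20 genes these counts show little about the list. In iHoxc10 neurons Etv1 (1.01) and Dusp4 (0.63) rose and Dusp6 fell (-0.86), where 6.67% of all genes rose and 7.75% fell. In iHoxc8 neurons Etv1 was the 1 gene called (1.49), and in iHoxc6 neurons there was none. Between iHoxc9 and iHoxc10 neurons Spry2 was higher (0.89) and Spry1, Dusp4 and Dusp6 were lower in iHoxc9 (-0.68, -0.74 and -0.81). In that comparison 2.6% of all genes were higher and 2.4% lower.

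Other trophic systems of motor neurons moved with differentiation as well. Of 20 genes of the CNTF and LIF, HGF, IGF, VEGF, neuregulin and midkine systems, 2 rose and 10 fell from progenitors to control neurons, where 21.2% of all genes rose and 21.2% fell. Lif fell from 3.14 to 0.218 CPM (-3.84). The HGF receptor gene Met rose from 8.64 CPM in control neurons to 24.2 in iHoxc8 (1.48, adjusted p = 0.000576), 49.8 in iHoxc9 (2.53, adjusted p = 4.59e-08) and 29.4 CPM in iHoxc10 neurons (1.77, adjusted p = 1.09e-05). The ligand genes Ptn (pleiotrophin) and Mdk (midkine) fell in iHoxc9 and iHoxc10 neurons, Ptn most in iHoxc9, from 14.9 to 2.33 CPM (-2.67, adjusted p = 1.37e-07). Igf1r rose in both lines (0.89 and 0.83), and Igf1 rose in iHoxc10 neurons from 2.61 to 11.3 CPM (2.11, adjusted p = 1.19e-05). Igf1 and Ptn were the 2 genes that were lower in iHoxc9 than in iHoxc10 neurons, where 2.4% of all genes were lower. Met was the only gene of this list called in iHoxc8 neurons, where 1.03% of all genes rose, and none was called in iHoxc6 neurons.

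The genes whose level over the 18 libraries was most like that of each receptor were taken from 10967 genes with a mean of at least 5 CPM, by Pearson's r of log2(CPM + 1). The libraries share groups and runs, so r describes the group pattern. Ngfr was matched at 0.998 by Celf3, Sbk1 and the gene of Entrez identifier 100503956, which matched no symbol, and Ret at 0.992 to 0.988 by Sez6, Asic4 and Rbfox2. For Ntrk2 these were Pkd2l1, a marker of cerebrospinal fluid-contacting neurons, Elmo1 and Errfi1 (0.981 to 0.977). Gfra1 was most like Cntnap2, Sorcs3 and Plch1 (0.948 to 0.929), and Gfra2 most like Fam181b, Tecta and Adcyap1 (0.956 to 0.943). Gfra3 was most like Tmem163, Hoxc9 and Abcd4 (0.934 to 0.919), Hoxc9 being high through its transgene. Bdnf had the lowest values (Ccz1, Chrna5 and Mecom, 0.875 to 0.864), at the lowest level of the 7 genes searched.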

How the data were processed

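RNA-seq libraries (Illumina TruSeq Stranded mRNA) were grouped and numbered by their labels. Reads had been aligned to mm10 by the authors using STAR 2.7.0c, and featureCounts had assigned them to RefSeq genes, with genes of 1 Entrez identifier merged. The deposited values are raw read counts, one column per library. The authors used DESeq2 1.20.0 on these counts. The strand setting is not given in the sources used here.

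Here edgeR 4.0.16 under R 4.3.3 was used for TMM scaling and for the quasi-likelihood test (1 fit of 18 libraries with a group term). Genes with no count in any iHox library were dropped. The 2 thresholds for differentially expressed genes and the absence of covariates follow the study's methods. Calling a gene changed by the adjusted p alone is a looser rule added here. The SE came from the F statistic, and 95% intervals are 1.96 SE on either side. Symbols were matched for 25275 of 27179 Entrez identifiers in RefSeq (GRCm38.p6), and exon lengths came from GENCODE. Promoter sequences are from RefSeq, GRCm38.p6. The code was tested on simulated data. The alternatives were DESeq2 1.42.0 (Wald test), its size factors, a filter of 10 counts in 3 libraries, no filter, another log2 threshold, fits of the compared groups only, a replicate block, and leaving out each library. The fit of day 4 libraries only was added after the data had been seen. Replicate numbers were taken to pair libraries where all 3 same-numbered pairs deviated together (r above 0.1 across genes), which among the 6 main comparisons held for iHoxc9 and iHoxc10 (r = 0.579, 0.474 and 0.651). Among the other comparisons it held for iHoxc6 with iHoxc8 (r = 0.287, 0.630 and 0.610) and, more weakly, with iHoxc9 (r = 0.142, 0.215 and 0.117). No label says that equal numbers share a culture.

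The 9 genes and the gene lists were chosen with earlier results of these data known. All 9 genes were named, as were the ligands and receptors of both systems (some results under this rule are not reported here), and from each list up to 4 differentially expressed genes per comparison with a mean of at least 1 CPM in a compared group. For receptors that were differentially expressed in any of the 6 main comparisons, the 3 genes of most like pattern were named. Where 5 or fewer genes of a list were called, those outside the rule were named after their values had been seen, as were single marker genes. Replicate pairs differed by more than sampling noise in all groups. P-values measure the spread between differentiations of 1 line each.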

Additional observations from a re-analysis of the deposited data

Results flagged for a closer look

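The changes of iHoxc9 and of iHoxc10 neurons from the same control libraries differed for 5 of the 9 genes. The test of this difference is the direct contrast of iHoxc9 with iHoxc10 neurons. The difference in log2 fold change was 2.85 for Gfra3, 2.44 for Bdnf, 1.86 for Gfra2 and 1.51 for Ntrk2, all higher with Hoxc9. For Gfra1 it was -1.33, lower with Hoxc9. Against control neurons Gfra1 changed by 0.76 with Hoxc9 and 2.09 with Hoxc10, and Gfra3 by 2.97 and 0.12. Groups of 3 libraries were too small for a test of outlying libraries.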

How the results depend on the processing

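Of 22 called differences of the 9 genes in the 6 main comparisons, 534 of 566 recomputed values kept their call, 32 lost it and 0 changed direction. Of 32 differences that were not called, 17 of 829 recomputed values were called.

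The count of genes called in control neurons against progenitors was 6, and 2 with the replicate block in a fit of these groups alone and 2 with a log2 fold change above 2 added. In iHoxc6 against control neurons it was 1, and 2 with DESeq2's Wald test, 2 with day 4 libraries only, 0 with the block in these groups alone and 0 with the log2 threshold of 2. In iHoxc9 against control neurons it was 5, and 6 with DESeq2's Wald test and 3 with that threshold. In iHoxc10 against control neurons it was 5, and 3 in these groups alone, 2 with the block there, and 2 with a log2 threshold of 2 or of 1. Between iHoxc9 and iHoxc10 neurons it was 5, and 8 in these groups alone, 8 with the block there and 2 with the log2 threshold of 2. DESeq2's Wald test added Ret in this comparison (adjusted p = 0.0015). With 1 library left out the counts were 5 to 6 for control against progenitors, 1 to 2, 0 to 0, 4 to 6 and 3 to 5 for iHoxc6, iHoxc8, iHoxc9 and iHoxc10 against control, and 5 to 5 for iHoxc9 against iHoxc10. Fits of fewer groups hold fewer libraries and estimate the spread from these alone. Shares of all genes called were computed for the fit of all libraries only, so counts from the other fits have no share beside them. Otherwise the cause of these shifts was not tested. The replicate block in the fit of all 18 libraries changed none of the 6 counts. In the 5 main comparisons whose numbers do not pair the libraries, same-numbered libraries correlated at -0.512 to 0.352, and 0 to 2 of 6 libraries correlated best with their own number.

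Gfra4 and Bdnf rest on few reads, 3 to 23 and 4 to 43 counts per library, so modest changes of these genes were not detectable at this depth. DESeq2's size factors moved the median log2 fold change of all genes by less than 0.1 in each main comparison.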
